A study of Mus musculus with 2 samples.

Results

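The genes described here are 10 members of the BCL2 family, taken by gene symbol from the 32285 genes of both count matrices. The pro-death members are the pore formers Bax and Bak1 and the BH3-only genes Bbc3, Pmaip1, Bad, Bid and Bcl2l11, and the anti-death members are Bcl2l1, Mcl1 and Bcl2. All 10 were found, and 8 of them reached 5 UMIs per 1000000 (CPM) in at least 1 library; Bcl2l11 and Pmaip1 did not. The study cultured mouse hematopoietic stem cells in suspension for 48 h and profiled them with the 10x Genomics 3′ single-cell workflow, which counts transcripts by unique molecular identifiers (UMIs). In 1 library the cells were kept in RO-3066 and in the other in the vehicle DMSO; the labels give blood as the tissue, and neither the dose nor the target of RO-3066, and no mouse strain, age or genotype. With 1 library per treatment there is no replicate error and no test between treatments, so every interval below is a 95% counting interval, which leaves out the spread between cultures.

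BCL2 family proteins decide whether the outer mitochondrial membrane is opened, which releases cytochrome c and activates caspases. Bax and Bak1 form the pores, the anti-death proteins hold them and the BH3-only proteins in check, and the BH3-only proteins free or activate the pore formers. In blood-forming stem cells Mcl1 is known as a survival factor, Bcl2l1 is known for its part in platelet lifespan, and Bbc3, Pmaip1 and Bax are textbook targets of p53. Cdkn1a, the p53 target that encodes the cell cycle inhibitor p21, and Pf4, a platelet chemokine gene of the megakaryocyte lineage, serve below as the scales along which the family is described.

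The analysis kept 5833 DMSO and 3683 RO-3066 cells, with medians of 24068 and 34907 UMIs and of 4774 and 5723 genes per cell. The libraries also differed in phase calls: with DMSO 63.0% of cells were called G2M and 31.7% S, and with RO-3066 84.2% and 12.7%. The labelled cell type was checked on 10 stem cell markers, which summed to 350.2 CPM in DMSO and 406 CPM in RO-3066, with every marker at 1 CPM or more in both. The 9 megakaryocyte markers other than Pf4 summed to 677 and 1182 CPM, 7 erythroid markers to 246 and 487 CPM, 8 neutrophil and monocyte markers to 141 and 142 CPM and 4 mast cell and basophil markers to 2.95 and 7.25 CPM. Of the erythroid sums, Hbb-bt alone made up 194 and 452 CPM. The 6 lymphoid markers summed to 0.349 and 0.421 CPM, with Cd3e and Il7r at 0 in both. The libraries shared 7 barcodes, 6 of them among kept cells. In the 50% of cells with the lowest Pf4 share, Pf4 was at 4.63% (DMSO) and 3.88% (RO-3066) of its library mean, an upper limit on free RNA of this abundant transcript in those cells. No cell type that should lack the family was at hand, so the shares of positive cells below have no background of their own.

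Promoter windows of 250 bases before to 50 bases after the transcript start were matched for 9 of the 10 members (15 windows, RefSeq on GRCm38.p6). Each was searched on both strands for the p53 response element, a pair of 10-base half-sites, allowing up to 3 mismatches in 20 bases and a spacer of up to 3 bases. The core of each half-site (CWWG, with W for A or T) had to be intact, so mismatches were allowed only in the bases around it. The settings were chosen after several had been tried and the matches seen, so the matches only describe these letters. A match was found in 2.21% of all windows (726 of 32851), in 1 window each of Bax and Bbc3, and in no window of the other matched members. The windows with a match of Bax and Bbc3, whose levels follow Cdkn1a below, are shown with that of Cdkn1a and, as an anti-death gene without a match, that of Mcl1. Each is written 5′ to 3′ on the gene's strand, and capitals mark the match.
Bax: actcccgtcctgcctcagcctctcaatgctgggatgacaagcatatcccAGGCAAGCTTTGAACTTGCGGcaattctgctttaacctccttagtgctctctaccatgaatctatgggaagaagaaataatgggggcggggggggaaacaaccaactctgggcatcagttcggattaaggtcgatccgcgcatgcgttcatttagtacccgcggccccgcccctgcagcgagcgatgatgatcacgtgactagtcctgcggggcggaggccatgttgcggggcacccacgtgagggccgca
Bbc3: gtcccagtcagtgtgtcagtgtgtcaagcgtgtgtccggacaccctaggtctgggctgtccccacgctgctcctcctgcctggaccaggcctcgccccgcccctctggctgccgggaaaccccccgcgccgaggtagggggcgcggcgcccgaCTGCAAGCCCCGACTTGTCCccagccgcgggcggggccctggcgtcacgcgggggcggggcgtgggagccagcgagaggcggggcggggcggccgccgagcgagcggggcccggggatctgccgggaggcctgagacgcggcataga
Cdkn1a: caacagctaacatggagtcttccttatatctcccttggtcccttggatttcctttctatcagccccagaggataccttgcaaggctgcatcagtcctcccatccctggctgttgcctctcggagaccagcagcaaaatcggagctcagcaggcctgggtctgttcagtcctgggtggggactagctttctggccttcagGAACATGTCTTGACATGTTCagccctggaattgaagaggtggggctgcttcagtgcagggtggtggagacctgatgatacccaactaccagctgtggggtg
Mcl1: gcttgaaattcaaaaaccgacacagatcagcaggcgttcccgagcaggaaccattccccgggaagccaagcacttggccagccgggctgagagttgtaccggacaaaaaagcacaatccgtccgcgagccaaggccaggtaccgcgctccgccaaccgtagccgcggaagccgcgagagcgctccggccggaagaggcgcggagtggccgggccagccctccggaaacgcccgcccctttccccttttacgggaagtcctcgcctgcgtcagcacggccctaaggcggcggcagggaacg
The Bax window lies at chr7:45466849-45467148 (minus strand), and its match at bases -201 to -181 from the start has 2 mismatches and a spacer of 1 base. The Bbc3 window lies at chr7:16309333-16309632 (plus strand), with a match at -97 to -78 that has 3 mismatches and no spacer. The Cdkn1a window shown lies at chr17:29090729-29091028 (plus strand), with a match at -51 to -32 that has 1 mismatch, and the Mcl1 window at chr3:95658471-95658770 (plus strand). No match was found in the other Cdkn1a window (chr17:29093519-29093818) or in the other Bbc3 windows (chr7:16310011-16310310 and chr7:16310181-16310480). With a limit of 2 mismatches and a spacer of up to 13 bases (2.12% of windows) the Bbc3 match was lost and the Bax match kept, and with no spacer allowed (0.572%) the Bax match was lost and the Bbc3 match kept.

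Both libraries held the members in the same order of level. Because the 3′ workflow counts captured transcripts, CPM were compared between genes without a length correction. The setting for intron reads was not given, and an effect of gene length on this order was not tested. Bax stood first with 270.4 CPM in DMSO and 324 CPM in RO-3066, and it alone made up 43.7% and 45.8% of all UMIs of the family. Mcl1 was next with 121 and 101 CPM. Bcl2 (62.3 and 78.3 CPM) and Bad (61.7 and 77.9 CPM) followed at levels whose counting intervals overlapped within each library. Bak1 was at 43.8 and 48.4 CPM, Bcl2l1 at 26.9 and 34.6 CPM, Bbc3 at 15.4 and 22.6 CPM, and Bid at 12.6 and 15.5 CPM. Bcl2l11 stayed at 4.25 and 4.17 CPM, and Pmaip1 was nearly absent with 72 UMIs in the whole DMSO library and 162 in RO-3066 (0.409 and 0.985 CPM). The median cell showed 3 of the 10 members when every cell was thinned to 10000 UMIs.

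**Figure D1:**
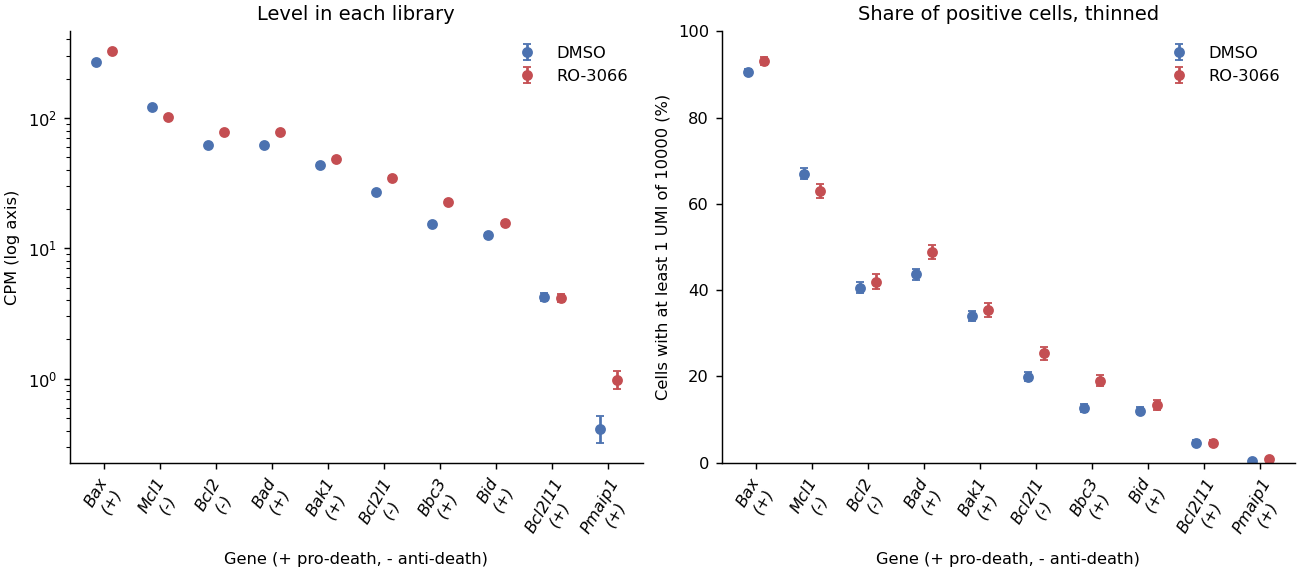
Level of each member in CPM on a log axis (left) and share of cells with at least 1 UMI after thinning each cell to 10000 UMIs (right), in DMSO (blue, 1 library) and RO-3066 (red, 1 library); bars are 95% counting intervals. Bax leads and Pmaip1 is last in both libraries, and both the level and the share of Mcl1 are lower in RO-3066 (101 against 121 CPM, 63.0% against 67.0% of cells).

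Among the pore formers, Bax (ENSMUSG00000003873, chr7:45461697-45466898) was at 270.4 CPM in DMSO and 324 CPM in RO-3066, a ratio of 1.20 (1.18 to 1.21). After thinning, a Bax UMI was held by 90.6% (DMSO) and 93.2% (RO-3066) of cells, with 2.79 and 3.44 UMIs per positive cell. The transcript was thus detected in nearly all cells of both libraries, so its share had little room to differ. The mean per positive cell does not show whether all cells or some of them held more. Without the cells of 2 or more Cdkn1a UMIs the log2 ratio of Bax was 0.17, against 0.26 over all cells. Bak1 (ENSMUSG00000057789, chr17:27019810-27029009) was at 43.8 and 48.4 CPM, a ratio of 1.11 (1.07 to 1.14), and in 34.0% and 35.4% of cells. Its order turned among cells of 15000 to 40000 UMIs (log2 ratio of CPM plus 1 of -0.054 against 0.14 over all cells) and among cells called S (-0.13), so no direction is given for Bak1.

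Of the BH3-only genes, Bbc3 (PUMA; ENSMUSG00000002083, chr7:16308393-16318205) stood furthest apart among members of at least 5 CPM. Bbc3 was at 15.4 CPM in DMSO and 22.6 CPM in RO-3066, a ratio of 1.47 (1.40 to 1.54), and in 12.6% and 19.0% of thinned cells. Its log2 ratio of 0.52 was 0.99 among cells of 15000 to 40000 UMIs and 0.84 when every cell was given the same weight, and 0.37 without the cells of 2 or more Cdkn1a UMIs. Pmaip1 (NOXA; ENSMUSG00000024521), at 0.409 and 0.985 CPM, had a ratio of 2.41 (1.81 to 3.22) and was found in 0.348% and 0.815% of thinned cells. Bad, whose protein binds Bcl2l1 and Bcl2 (ENSMUSG00000024959, chr19:6941861-6951899), was at 61.7 and 77.9 CPM, a ratio of 1.26 (1.23 to 1.29), and in 43.6% and 48.8% of cells. The Bad difference was not seen among cells of 15000 to 40000 UMIs (log2 ratio -0.023 against 0.33 over all cells) and among cells called S (-0.017). Bid, which links death receptor signalling to mitochondria (ENSMUSG00000004446, chr6:120891930-120916853), was at 12.6 and 15.5 CPM, a ratio of 1.23 (1.16 to 1.30), and in 12.1% and 13.3% of cells; its log2 ratio of 0.28 was 0.025 among cells of 15000 to 40000 UMIs. Bcl2l11 (BIM; ENSMUSG00000027381, chr2:128126038-128162547), at 4.25 and 4.17 CPM, had a ratio of 0.981 with an interval of 0.883 to 1.09.

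Of the anti-death genes, Mcl1 (ENSMUSG00000038612, chr3:95658788-95663176) was the member of at least 5 CPM with the lower level in RO-3066. Mcl1 was at 121 CPM in DMSO and 101 CPM in RO-3066, a ratio of 0.837 (0.820 to 0.854), and in 67.0% and 63.0% of thinned cells. Without thinning the shares were 89.95% and 92.4%, an order that goes against the CPM in libraries of unequal depth, so none is read from them. The log2 ratio of -0.25 was -0.034 among cells of 15000 to 40000 UMIs and -0.12 with every cell given the same weight. Bcl2l1 (BCL-XL; ENSMUSG00000007659, chr2:152780668-152831728) was at 26.9 and 34.6 CPM, a ratio of 1.29 (1.24 to 1.34), and in 19.98% and 25.3% of cells, and it kept its direction under the 12 alternatives run on it (log2 ratios of 0.117 to 0.365). Bcl2 (ENSMUSG00000057329, chr1:106538178-106714274) was at 62.3 and 78.3 CPM, a ratio of 1.26 (1.22 to 1.29), and in 40.6% and 42.0% of cells. This order also turned, with a Bcl2 log2 ratio of 0.32 over all cells, -0.31 among cells of 15000 to 40000 UMIs and -0.24 among cells called S.

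None of the 8 members of at least 5 CPM differed 1.5-fold between the libraries, where 6.5% of 9334 such genes were at least 1.5-fold higher in RO-3066 and 2.45% at least 1.5-fold lower. The median log2 ratio was 0.30 over the 8 members and close to 0 (-0.0035) over all 9334 genes. Scaling by the median of gene ratios moved the median over all genes to -0.10; the log2 ratio of each member of at least 5 CPM kept its sign under it. Whether strand was used in counting is not given in the sources used here, and reads of overlapping genes may be shared: Bid overlaps Bcl2l13 on the opposite strand (16.1 and 17.9 CPM), Bad overlaps Gpr137 (11.8 and 13.9 CPM) and Bak1 overlaps Ggnbp1 (3.44 and 2.72 CPM).

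Summed over genes, the 7 pro-death members reached 409 CPM in DMSO and 493 CPM in RO-3066, and the 3 anti-death members 210.0 and 214 CPM. The pro- to anti-death balance, the first sum over the second, was 1.95 (1.92 to 1.97) with DMSO and 2.31 (2.28 to 2.34) with RO-3066, a ratio of 1.19 (1.16 to 1.21). The direction rested on Mcl1, without which the balance was 4.58 in DMSO and 4.37 in RO-3066. Without Bax it was 0.658 and 0.793, a log2 ratio of 0.27 against 0.25 with all members. Cell by cell, at 10000 UMIs, more pro- than anti-death UMIs were counted in 71.3% (70.1% to 72.5%) of cells with DMSO and 77.9% (76.5% to 79.2%) with RO-3066. More anti- than pro-death UMIs were counted in 16.8% and 12.4% of cells, and equal numbers in 11.8% and 9.67%. No anti-death UMI was seen in 15.8% and 16.3% of cells and no pro-death UMI in 2.73% and 1.77%. The balance is one of transcripts; protein levels, on which the family acts, were not measured.

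Cells were next grouped by the number of Cdkn1a UMIs among 10000. No Cdkn1a UMI was seen in 4777 DMSO and 2587 RO-3066 cells, 1 in 768 and 615 cells, and 2 or more in 206 and 357 cells, or 3.58% and 10.03% of the cells of each library. Within the last group, 27 DMSO and 139 RO-3066 cells had 4 or more. Median depth was close between the groups of 0 and of 2 or more (24352 and 23543 UMIs in DMSO, 35126 and 35192 UMIs in RO-3066). In DMSO the group of 2 or more had fewer G2M calls than the group of 0 (47.1% against 65.0%), more Pf4 (9084 against 4734 CPM) and less of the 10 stem cell markers (252 against 362 CPM). In RO-3066 these values were closer together (83.5% against 84.7% in G2M, 4228 against 3868 CPM of Pf4, and 398 against 419 CPM of stem cell markers), and their part in the results below was not tested.

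Bax, Bbc3 and Pmaip1 were higher in cells with 2 or more Cdkn1a UMIs than in cells with 0 in both libraries. Bax was at 263, 281 and 392 CPM in DMSO cells with 0, 1 and 2 or more Cdkn1a UMIs, and at 289, 334 and 563 CPM in RO-3066 cells. The ratio of the last group to the first was 1.49 (1.44 to 1.55) with DMSO and 1.95 (1.90 to 1.99) with RO-3066. In cells with 4 or more Cdkn1a UMIs Bax reached 679 CPM in DMSO and 765 CPM in RO-3066, so that the gap between the libraries was narrower there than among cells of 2 or more. Bbc3 was at 14.1, 18.8 and 29.0 CPM in DMSO and at 18.3, 23.6 and 51.8 CPM in RO-3066. Its ratio was 2.06 (1.77 to 2.38) with DMSO and 2.83 (2.61 to 3.08) with RO-3066, and cells with 4 or more held 67.8 and 83.1 CPM. In DMSO a Bbc3 UMI was held by 12.3% (11.4% to 13.3%) of thinned cells at 0 and 14.6% (10.0% to 20.1%) at 2 or more. These intervals overlap, so no rise in the share is read in DMSO. In RO-3066 the shares were 15.6% (14.2% to 17.0%) and 38.9% (33.8% to 44.2%). Among DMSO cells of 15000 to 40000 UMIs the log2 ratio of Bbc3 was 0.34, against 0.99 over all DMSO cells, and that of Bax 0.36 against 0.58.

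Pmaip1, at under 1 CPM in either library, had its highest rate where Cdkn1a was high. It was at 0.319 CPM (46 UMIs) in DMSO cells without a Cdkn1a UMI, 0.409 CPM (10 UMIs) in those with 1 and 2.32 CPM (16 UMIs) in those with 2 or more, a ratio of 7.27 (3.84 to 13.1). In RO-3066 it was at 0.646 CPM (75 UMIs), 0.438 CPM (14 UMIs) and 4.35 CPM (68 UMIs), a ratio of the last to the first of 6.74 (4.78 to 9.48), and the 139 cells with 4 or more Cdkn1a UMIs held 53 of the 162 Pmaip1 UMIs of that library. Bcl2l11 was at 4.27 and 4.79 CPM in DMSO, a ratio of 1.12 whose interval of 0.765 to 1.59 spans 1. In RO-3066 it was at 3.79 and 6.21 CPM, a ratio of 1.64 (1.30 to 2.05), and at 9.93 CPM in cells with 4 or more.

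**Figure D2:**
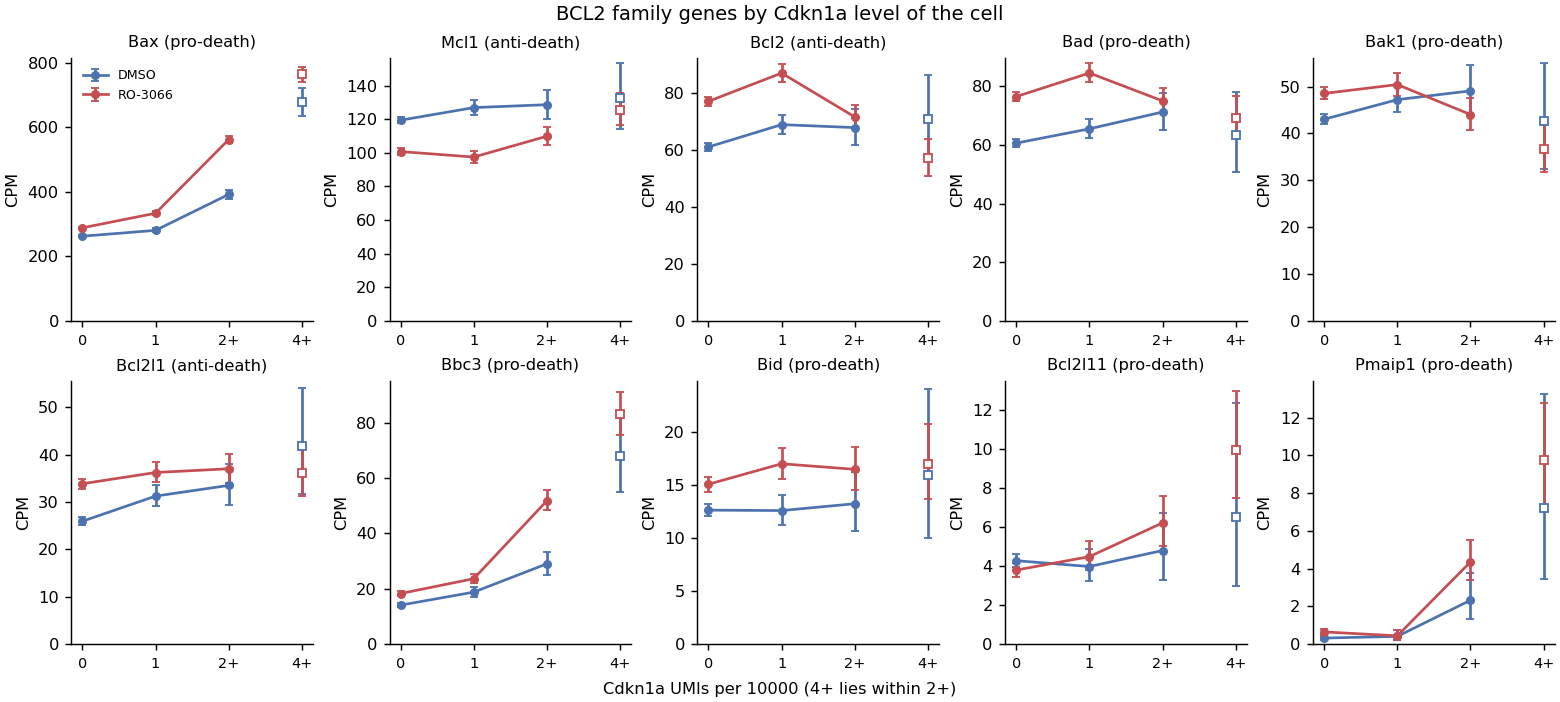
CPM of each member (vertical axes from 0, 1 scale per gene) against the Cdkn1a UMIs of the cell among 10000 (0, 1, 2 or more; open squares are the cells of 4 or more, which lie within the last group), in DMSO (blue) and RO-3066 (red); bars are 95% counting intervals. Bax and Bbc3 climb in both libraries (Bax to 679 and 765 CPM at 4 or more) and Pmaip1 is low at 0 and 1 and higher at 2 or more, while Mcl1 stays between 97.5 and 133 CPM.

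The other pore former and the anti-death genes had ratios of 2 or more over 0 between 0.907 and 1.29, and so did Bad and Bid. At 4 or more over 0 they reached 0.758 (0.655 to 0.873) for Bak1 and 0.742 (0.661 to 0.831) for Bcl2 in RO-3066, and 1.61 (1.22 to 2.09) for Bcl2l1 in DMSO, where the group holds 27 cells. Bak1 was at 43.0 and 49.1 CPM in DMSO (ratio 1.14, 1.02 to 1.27) and at 48.5 and 44.0 CPM in RO-3066 (0.907, 0.837 to 0.982). The DMSO direction of Bak1 was lost in 3 of 6 alternatives, with log2 ratios down to -0.066. Bad had ratios of 1.17 and 0.981, and Bid of 1.05 and 1.09. Mcl1 was at 119 and 129 CPM in DMSO (1.08) and at 101 and 110 CPM in RO-3066 (1.09). Bcl2l1 was at 26.0 and 33.5 CPM in DMSO (1.29, 1.13 to 1.48) and at 33.9 and 37.1 CPM in RO-3066 (1.09, 1.0003 to 1.19). Bcl2 was at 61.0 and 67.8 CPM in DMSO (1.11) and at 77.0 and 71.5 CPM in RO-3066 (0.929), where classes drawn from 20000 UMIs gave a log2 ratio of 0.18 in place of -0.10.

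At a fold of 1.5, only Bbc3 among 8 members of at least 5 CPM was higher in DMSO cells of 2 or more Cdkn1a UMIs, where 2.43% of 9099 genes were higher and 2.64% lower, and no member was lower. Within this DMSO group, the 27 cells of 4 or more held 94 of 200 Bbc3 UMIs, 941 of 2703 Bax UMIs and 10 of 16 Pmaip1 UMIs. In RO-3066, Bax, Bbc3 and Bcl2l11 of 9 members were higher and none was lower, against 2.18% of 9390 genes higher and 0.128% lower. Genes of at least 5 CPM in either group were counted. Bcl2l11 entered only through the group of 2 or more (6.21 against 3.79 CPM), so it could not have counted as lower. The median log2 ratio over members was 0.21 in DMSO and 0.12 in RO-3066, against -0.028 and -0.023 over all genes measured. Classes were cut from the level of Cdkn1a in the same cells, so they are ranges of a measured value and not cell types.

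The treatments were also set side by side inside each Cdkn1a group. Among cells without a Cdkn1a UMI, Bax was 1.10-fold (1.08 to 1.12) and Bbc3 1.30-fold (1.22 to 1.38) higher in RO-3066, while Mcl1 stood at 0.844 (0.824 to 0.864) of its DMSO level. Among cells of 2 or more, the ratios were 1.43 (1.37 to 1.497) for Bax, 1.79 (1.53 to 2.09) for Bbc3 and 0.854 (0.787 to 0.927) for Mcl1. The groups were not matched for Cdkn1a itself, which over all UMIs was at 11.3 CPM in DMSO and 21.3 CPM in RO-3066 in the group of 0, and at 176 and 262 CPM in the group of 2 or more. Bad and Bcl2 showed their difference in cells without a Cdkn1a UMI (1.26 for each) and little of it in cells of 2 or more (1.05 and 1.06, with intervals that span 1).

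Cells were then grouped by the share of their UMIs that came from Pf4, at the 50th, 75th and 90th percentile of the DMSO cells (0.0569%, 0.276% and 0.820%), with Pf4 left out of the totals. From the lowest to the highest class there were 2916, 1458, 875 and 584 DMSO cells and 2231, 721, 391 and 340 RO-3066 cells. Cells within 10% of a limit numbered 265, 159 and 126 in DMSO and 136, 80 and 71 in RO-3066. Median depth climbed with the class, from 21799 to 53607 UMIs in DMSO and from 26996 to 89490 UMIs in RO-3066, and G2M calls from 57.6% to 78.8% and from 78.6% to 96.7%. Between the lowest and the highest class the 10 stem cell markers summed to 545 and 154 CPM in DMSO and to 604 and 216 CPM in RO-3066, and the megakaryocyte markers other than Pf4 to 334 and 1400 CPM and to 537 and 2326 CPM. Erythroid markers summed to 425 and 98.2 CPM in these classes of DMSO and to 835 and 224 CPM in RO-3066, and neutrophil and monocyte markers to 206 and 72.7 CPM and to 164 and 111 CPM. Hbb-bt alone was at 394 CPM (DMSO) and 812 CPM (RO-3066) in the lowest class, so the erythroid sums mainly follow this globin gene. In the highest class of DMSO the largest erythroid marker was Tfrc, at 66.7 CPM. Depth, phase and lineage markers therefore move with the class, and their part in the gene differences was not tested.

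Bcl2l1 and Bcl2 were higher in the upper Pf4 classes of both libraries. Bcl2l1 was at 19.7, 25.2, 30.4 and 38.3 CPM from the lowest to the highest class in DMSO, and at 27.4, 33.7, 40.8 and 44.8 CPM in RO-3066. The highest class stood 1.94-fold (1.80 to 2.09) above the lowest in DMSO and 1.64-fold (1.53 to 1.75) in RO-3066. Bcl2 was at 47.9, 59.7, 79.2 and 77.0 CPM in DMSO and at 45.0, 83.1, 115 and 107 CPM in RO-3066, so that it levelled off in the upper classes. The Bcl2 ratios were 1.61 (1.53 to 1.69) and 2.38 (2.27 to 2.50), and the share of thinned cells with a Bcl2 UMI went from 35.2% to 50.6% in DMSO and from 32.7% to 62.9% in RO-3066. In the lowest class the Bcl2 levels of the libraries were close (0.940, 0.894 to 0.988), and in the other classes RO-3066 was 1.39-, 1.45- and 1.39-fold higher.

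Mcl1 took opposite courses in the libraries, a difference that could not be tested. In DMSO it was at 111, 115, 125 and 141 CPM from the lowest to the highest class, and in RO-3066 at 109, 97.6, 95.1 and 96.0 CPM. The highest over the lowest class gave 1.27 (1.22 to 1.31) with DMSO and 0.879 (0.843 to 0.916) with RO-3066. Between the treatments the ratio of Mcl1 was 0.982 (0.9504 to 1.01) in the lowest class, then 0.846, 0.763 and, in the highest class, 0.682 (0.653 to 0.712). The lower Mcl1 level of the RO-3066 library thus lay in the cells with more Pf4. Among cells of 15000 to 40000 UMIs the RO-3066 log2 ratio of Mcl1 was 0.11 in place of -0.18, over only 17 cells in the highest class.

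**Figure D3:**
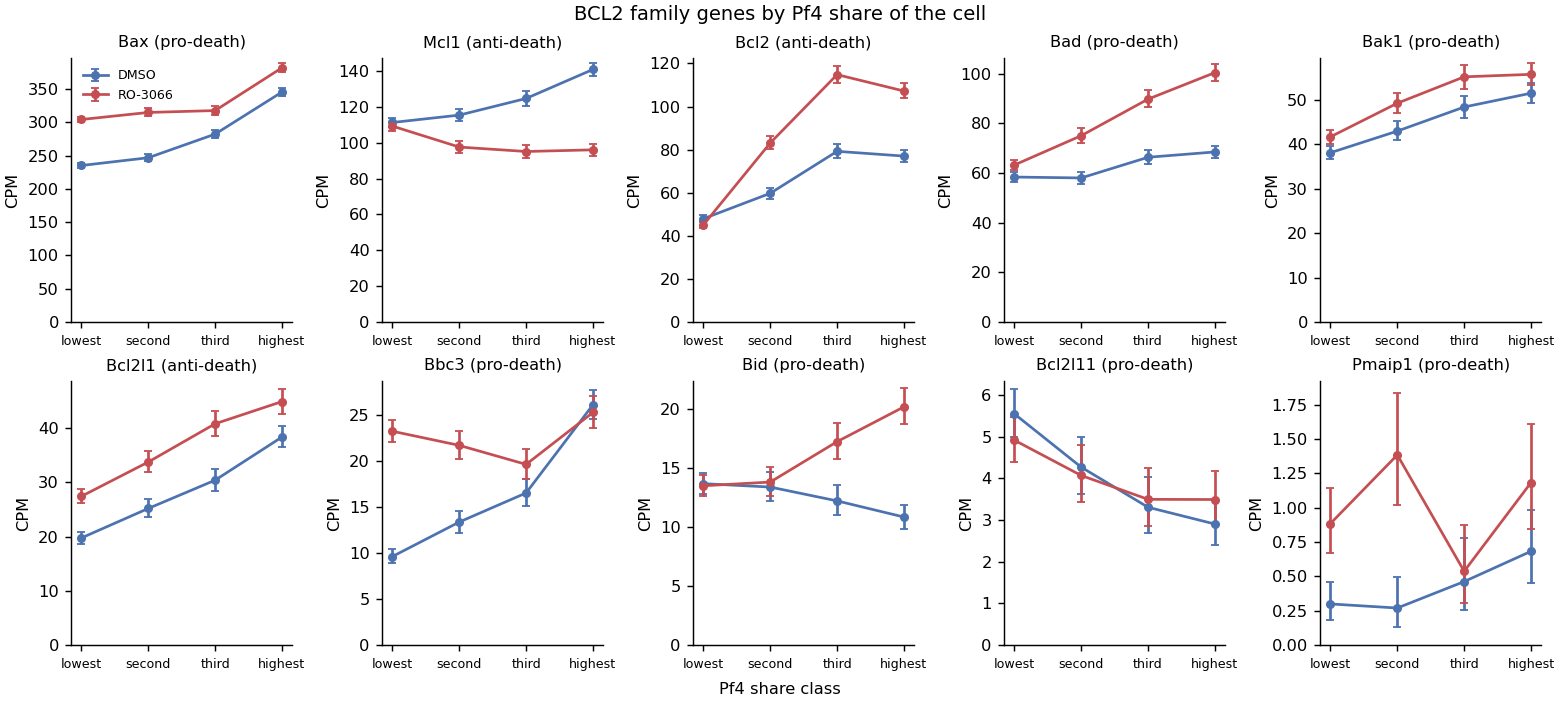
CPM of each member, Pf4 left out of the totals (vertical axes from 0, 1 scale per gene), in 4 classes of the Pf4 share of the cell, from lowest to highest, in DMSO (blue) and RO-3066 (red); bars are 95% counting intervals. Bcl2 and Bcl2l1 climb in both libraries, Mcl1 climbs in DMSO (111 to 141 CPM) and not in RO-3066 (109 to 96.0 CPM), and the Bbc3 lines start apart (9.62 and 23.2 CPM) and meet in the highest class.

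Bbc3 showed the reverse layout, with the treatments apart at low Pf4 and together at high Pf4. In DMSO it was at 9.62, 13.4, 16.5 and 26.1 CPM from the lowest to the highest class, a ratio of 2.71 (2.46 to 2.996). In RO-3066 it was at 23.2, 21.7, 19.6 and 25.3 CPM, a ratio of 1.09 (0.999 to 1.18). RO-3066 over DMSO was 2.41 (2.20 to 2.65) in the lowest class, then 1.62, 1.19 and, in the highest class, 0.968 (0.884 to 1.06). With classes above the 75th and below the 25th percentile the RO-3066 log2 ratio of Bbc3 by Pf4 was -0.12 in place of 0.12, and among cells without a Cdkn1a UMI 0.41. Among cells of 15000 to 40000 UMIs it was 1.23, over only 17 cells in the highest class, against 1.34 in DMSO. Bax was higher at high Pf4 in both libraries, at 235 and 346 CPM in DMSO (1.47) and 304 and 382 CPM in RO-3066 (1.26), and its RO-3066 over DMSO ratio was 1.29 in the lowest and 1.11 in the highest class.

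The other pro-death members differed in course. Bak1 was 1.35-fold and 1.34-fold higher in the highest than in the lowest class of DMSO and RO-3066. Bad was at 58.4, 58.0, 66.4 and 68.5 CPM in DMSO (1.17) and at 63.2, 75.1, 89.8 and 100.5 CPM in RO-3066 (1.59, 1.52 to 1.66). Bid was at 13.7, 13.4, 12.2 and 10.8 CPM in DMSO (0.793, 0.707 to 0.890) and at 13.5, 13.8, 17.2 and 20.1 CPM in RO-3066 (1.495, 1.35 to 1.65). These courses of Bid left the libraries level in the lowest class (0.987, 0.899 to 1.08) and 1.86-fold (1.65 to 2.10) apart in the highest; Bcl2l13, which overlaps Bid, had highest over lowest ratios of 1.13 and 0.975. Bcl2l11 was the member with less RNA at high Pf4 in both libraries, at 5.54 against 2.90 CPM in DMSO (0.524, 0.422 to 0.645) and 4.91 against 3.49 CPM in RO-3066 (0.710, 0.570 to 0.880).

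At a fold of 1.5, Bbc3, Bcl2l1 and Bcl2 of 9 members were higher in the highest Pf4 class of DMSO and Bcl2l11 was lower, where 11.2% of 9425 genes were higher and 14.7% lower. Bcl2l11 reached 5 CPM only in the lowest class (5.54 against 2.90 CPM), so it could not have counted as higher. In RO-3066, Bad, Bcl2l1 and Bcl2 of 8 members were higher and none was lower, against 11.9% of 9682 genes higher and 16.9% lower. The median log2 ratio over members was 0.43 and 0.48, against 0.00011 and -0.090 over all genes measured. The shares of all genes past 1.5-fold were larger along Pf4 than along Cdkn1a, and the counts of members are to be read against them.

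The balance over all 10 members was higher at 2 or more Cdkn1a UMIs than at 0, and how it compared along Pf4 depended on Mcl1. In DMSO it was 1.93, 1.89 and 2.44 at 0, 1 and 2 or more Cdkn1a UMIs, and 3.60 (3.19 to 4.07) at 4 or more. In RO-3066 it was 2.13, 2.33 and 3.48, and 4.52 (4.25 to 4.82) at 4 or more. The cells of 2 or more over those of 0 gave ratios of 1.27 (1.19 to 1.35) with DMSO and 1.63 (1.57 to 1.70) with RO-3066. Much of this was Bax: without it the balance was 0.654 and 0.738 in DMSO and 0.769 and 0.906 in RO-3066. Along Pf4 the balance was 2.02, 1.89, 1.83 and 1.98 in DMSO and 2.49, 2.24, 2.01 and 2.37 in RO-3066. Highest over lowest gave 0.980 (0.949 to 1.01) and 0.954 (0.923 to 0.986). Without Mcl1 the balance along Pf4 was 5.33, 4.47, 3.92 and 4.39 in DMSO and 6.24, 4.11, 3.24 and 3.87 in RO-3066, so it was lower in the upper classes, while at 0, 1 and 2 or more Cdkn1a UMIs it was 4.57, 4.29 and 5.55 in DMSO and 4.07, 4.18 and 7.003 in RO-3066. With all members, the RO-3066 direction along Pf4 turned among cells without a Cdkn1a UMI, where the log2 ratio was 0.016.

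**Figure D4:**
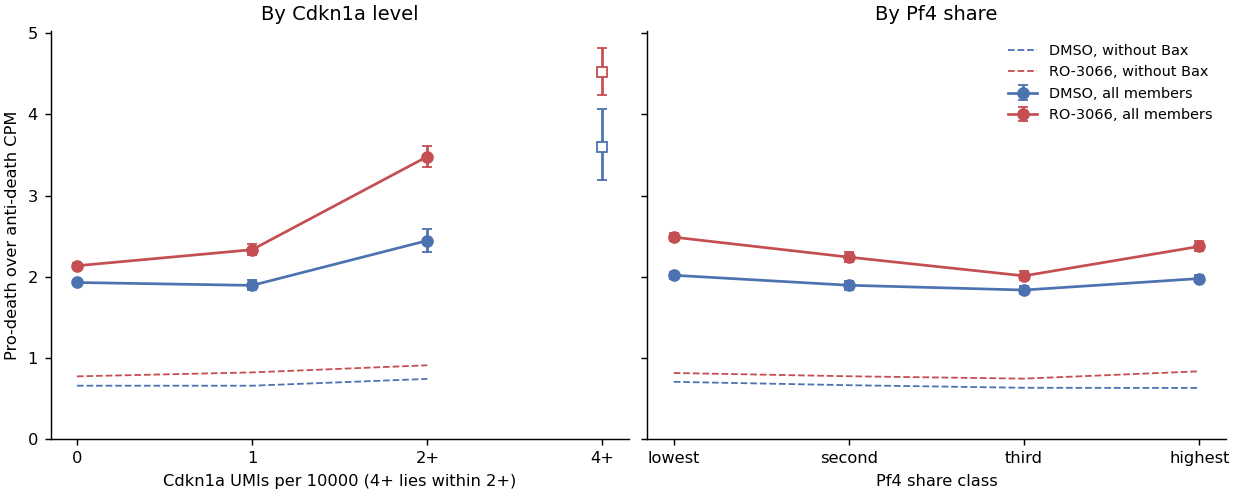
Pro- over anti-death CPM (vertical axis from 0) by the Cdkn1a UMIs of the cell among 10000 (left, open squares for 4 or more) and by Pf4 share class (right), in DMSO (blue) and RO-3066 (red); solid lines with 95% counting intervals use all 10 members and dashed lines leave out Bax. The solid lines reach 3.60 and 4.52 at 4 or more Cdkn1a UMIs and lie between 1.83 and 2.49 along Pf4; the dashed lines, drawn up to 2 or more, stay below 1 (at 4 or more, not drawn, the values without Bax are 0.829 and 1.03).

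With both scales combined, the balance was highest in RO-3066 cells with 2 or more Cdkn1a UMIs and the lowest Pf4 share. These 209 cells had a balance of 4.23, with Bax at 627 CPM, Bbc3 at 70.2 CPM and Pmaip1 at 5.88 CPM, and with Bcl2 at 39.9 CPM, the lowest Bcl2 level of the 24 groups. The 62 DMSO cells of the same classes had a balance of 2.61, with Bax at 362 CPM and Bbc3 at 19.7 CPM. The lowest balance, 1.78, was that of the 112 DMSO cells with 1 Cdkn1a UMI and the highest Pf4 share. Within each Pf4 class of RO-3066 the balance was higher at 2 or more Cdkn1a UMIs than at 0, at 4.23 against 2.23, 3.76 against 2.03, 2.54 against 1.93 and 3.09 against 2.26. The same held within each Pf4 class of DMSO, at 2.61 against 1.99, 2.51 against 1.85, 2.09 against 1.81 and 2.57 against 1.97. In RO-3066 Bbc3 at 2 or more was 70.2, 51.3, 29.9 and 42.5 CPM across the Pf4 classes. The last of these groups held 25 cells, so these levels rest on few cells.

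**Figure D5:**
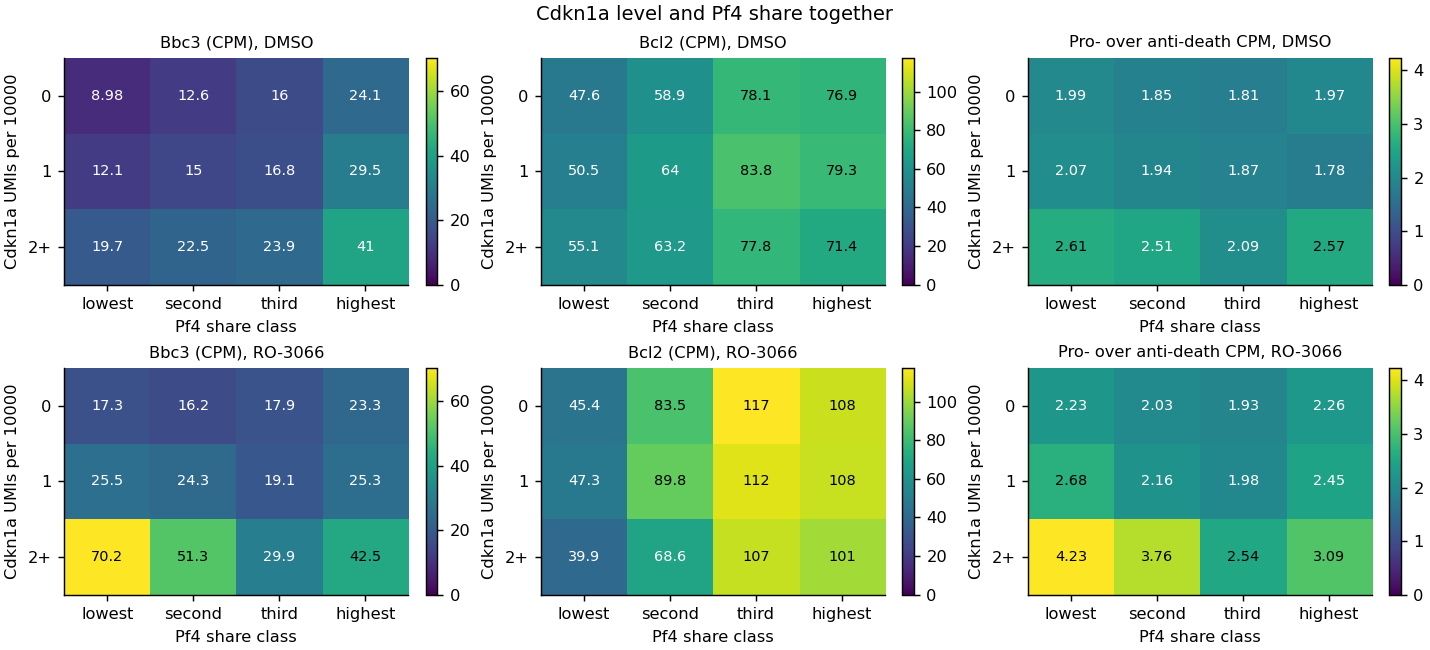
Bbc3 (CPM), Bcl2 (CPM) and the pro- to anti-death balance in the 24 groups of cells made by library (rows of panels), Cdkn1a UMIs among 10000 (vertical) and Pf4 share class (horizontal); colour and printed values give the level, on 1 colour scale per quantity from 0. Bbc3 and the balance peak at 70.2 CPM and 4.23 in RO-3066 cells of high Cdkn1a and lowest Pf4, where Bcl2 is at 39.9 CPM.

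Across these 24 groups, the genes of at least 20 CPM whose log2 levels ran most like each member were found by Pearson correlation. The groups share libraries, depth and the same scales, so the values only describe them. For Bax the nearest were Pdcd6ip (0.92), Ccng1 (0.91) and Mdm2 (0.88), and for Bbc3 the same 3 genes (0.91, 0.89 and 0.88); Mdm2 encodes the ligase that limits p53. For Pmaip1 they were Ccng1, Mdm2 and Aen (0.92, 0.92 and 0.90). Bcl2l1 ran most like Casp4 (0.97), Tbxas1 (0.96), which encodes thromboxane synthase of platelets, and Stard10 (0.96). Bcl2 ran most like Klk8, Smap2 and Dtnbp1 (0.93, 0.92 and 0.92) and Bak1 like Smap2 (0.94) and Mef2c (0.92). Mcl1 ran most like the linker histone gene H1f0 (0.90), Hist1h2bc (0.88) and Mrpl57 (0.88). Bad, Bid and Bcl2l11 ran most like Bex4 (0.91), Zfp704 (0.89) and Tnfrsf1a (0.78).

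Other genes of the pathway were read from lists of known roles, again at 1.5-fold and against the same backgrounds. Genes of at least 5 CPM in either of the groups compared were counted as measured. Of 10 p53 and death receptor genes measured between the libraries, Phlda3 (3.05 CPM in DMSO and 16.6 CPM in RO-3066), Zmat3 (1.98 and 7.12 CPM) and Ccng1 (18.9 and 30.1 CPM) were higher in RO-3066 and none was lower. Phlda3 and Zmat3 reached 5 CPM only in RO-3066. In cells of 2 or more Cdkn1a UMIs, 8 of 12 measured genes of this list were higher in DMSO and 12 of 14 in RO-3066. These included Mdm2 (1.78 and 3.10-fold), Fas, the death receptor gene (2.31 and 5.22-fold), and Trp53inp1 (6.88 and 11.3-fold), while Trp53 itself was at 0.925 and 0.957. Some of the higher genes reached 5 CPM only in the group of 2 or more and could not have counted as lower. These were Fas, Zmat3, Trp53inp1 and Phlda3 in DMSO, and Fas, Tnfrsf10b, Perp, Zmat3 and Trp53inp1 in RO-3066. Part of both counts therefore follows from the filter. Along Pf4 none of 8 was 1.5-fold apart in DMSO (from 0.735 for Siva1 to 1.45 for Mdm2), and Ei24, Trp53inp1 and Phlda3 of 11 were lower in the highest class of RO-3066 (0.644, 0.233 and 0.489). There Trp53inp1 reached 5 CPM only in the lowest class (7.48 against 1.75 CPM).

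Downstream of the family, between the libraries only Cycs, which encodes cytochrome c, of 21 apoptosome and caspase genes was apart, at 381 CPM in DMSO and 254 CPM in RO-3066 (0.665). In RO-3066 cells of 2 or more Cdkn1a UMIs, Apaf1, the scaffold of the apoptosome, was at 20.3 against 11.4 CPM (1.79) and Dffb, a nuclease of apoptotic DNA cleavage, at 10.9 against 6.59 CPM (1.66), of 21 measured; in DMSO none of 20 was apart (from 0.731 for Birc5 to 1.38 for Apaf1). In the highest Pf4 class, of 21 measured in each library, Casp8 (0.652) and Diablo (0.530) were lower and Apaf1 (1.59) higher in DMSO. In RO-3066 Casp2 (0.553) was lower and Casp6 (1.53) higher. Over all genes 14.7% were lower and 11.2% higher in DMSO, and 16.9% and 11.9% in RO-3066. The counts of this list along Pf4 do not exceed these shares. Of 6 further BCL2 family genes measured between the libraries, Bnip3, a mitophagy gene induced by hypoxia, was at 92.4 CPM in DMSO and 26.0 CPM in RO-3066 (0.282). Bok, a pore former related to Bax and Bak1, was at 19.8 CPM in the lowest and 2.12 CPM in the highest Pf4 class of DMSO (0.107), and at 12.5 and 4.64 CPM in RO-3066 (0.370). It was also the 1 gene of this list apart along Cdkn1a in DMSO (0.532, 6 measured), and none of 6 was apart in RO-3066 (from 0.679 for Bok to 1.02 for Bcl2l12). None of 6 genes of Mcl1 protein turnover was 1.5-fold apart between the libraries; the ligase gene Huwe1 had the lowest ratio (0.840) and Dusp6 the highest (1.20). Along Cdkn1a Dusp6 was lower in DMSO (0.613), and none of the 6 was apart in RO-3066 (from 0.917 for Huwe1 to 1.24 for March5).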

How the data were processed

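The values the authors deposited are raw UMI counts, 1 matrix of genes by barcodes for each library. Cell Ranger 5.0.1 and mm10 are named in the submitters' processing notes and Cell Ranger 7.1.0 in the file headers; for the annotation, intron reads and strand, settings were not given in the sources used here. The matrices held 6160 DMSO and 3882 RO-3066 barcodes with 188022321 and 171821236 UMIs.

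Barcodes under 1000 UMIs, under 500 genes or above 10% mitochondrial UMIs were dropped (26 and 84). Doublets were called at 0.8% per 1000 barcodes from simulated doublets among 50 neighbours, which removed 301 (4.91%) and 115 (3.03%) cells. UMIs were summed over kept cells as CPM; log2 ratios used a pseudocount of 1 CPM, and ratios in plain numbers are of CPM. Shares, per-cell balances and Cdkn1a classes used cells thinned to 10000 UMIs (82 and 124 shallower cells left out, 5751 and 3559 used). Intervals of gene ratios are exact conditional Poisson intervals. Those of shares are exact Clopper-Pearson intervals, from which those of balances were derived. Intervals of ratios between balances are normal approximations on the log scale. All are at 95% and cover counting error only. The floor of detection, 3 counts, was 0.0171 CPM in DMSO and 0.0182 CPM in RO-3066, and every member lay above it. All 10 members were named, with list members at least 1.5-fold apart or, where none was, those of lowest and highest ratio, and the 3 genes most like each member (1 for Bad, Bid and Bcl2l11). Of the genes most like Bak1, 1 is not reported here. Members, lists and classes were chosen with earlier results of these data known, so no pattern here is independent support. Scripts were tested on simulated data and used Python 3.11.15, numpy 2.4.6, scipy 1.17.1, pandas 2.3.3, scikit-learn 1.9.0 and matplotlib 3.10.9. Gene positions are from GENCODE vM21 (GRCm38). Alternatives changed scaling, pseudocount, cell weights, filters, doublets, thinning, classes, phase, depth and the genes in the balance.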

Additional observations from a re-analysis of the deposited data

Results flagged for a closer look

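Of the members, 4 had counting intervals on opposite sides of 1 in the 2 libraries under the same contrast, which is what singled them out; with 1 library per treatment these differences between libraries were not tested. By Pf4 share, highest over lowest class, Bid had a ratio of 0.793 in DMSO and 1.495 in RO-3066, and Mcl1 of 1.27 in DMSO and 0.879 in RO-3066. By Cdkn1a level, 2 or more UMIs over 0, Bak1 had a ratio of 1.14 in DMSO and 0.907 in RO-3066, and Bcl2 of 1.11 in DMSO and 0.929 in RO-3066. Bid kept its direction in each library under the 5 alternatives run on it. In DMSO the alternative with limits from each library's own percentiles repeats the main setting, so it could not have changed the direction. In RO-3066 the alternative of 15000 to 40000 UMIs left 17 cells in the highest class. Mcl1 in RO-3066 turned among cells of 15000 to 40000 UMIs, which left 17 cells in the highest class, Bak1 in DMSO turned in 3 of 6 alternatives, and Bcl2 in RO-3066 turned with classes drawn from 20000 UMIs.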

How the results depend on the processing

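No paired analysis was possible because each treatment has 1 library, and for the same reason no replicate could be left out. No member of at least 5 CPM was 1.5-fold higher between the libraries (count 0), and 1 was with every cell given the same weight, among cells called S or among cells of 15000 to 40000 UMIs (Bbc3 each time), and 1 with no minimum level (Pmaip1). The count of lower members was 0 under all 14 alternatives. A minimum of 20 CPM and a pseudocount of 5 CPM are among these and could not have raised either count. The log2 ratio of the balance between the libraries, 0.25, was 0.28 with every cell given the same weight, 0.34 among cells called S, 0.36 among cells of 15000 to 40000 UMIs, 0.18 without cells of 2 or more Cdkn1a UMIs, 0.19 with Cdkn1a classes weighted as in DMSO, 0.15 with each gene given the same weight and -0.067 without Mcl1. By Cdkn1a level in DMSO, 0.34 became 0.20 with classes from 20000 UMIs, 0.19 among cells of 15000 to 40000 UMIs, 0.90 for cells of 4 or more UMIs and 0.17 without Bax. By Cdkn1a level in RO-3066, 0.71 became 0.91 with classes from 5000 UMIs, 0.45 from 20000 UMIs, 0.93 among cells of 15000 to 40000 UMIs, 0.82 with equal cell weights, 1.08 for cells of 4 or more UMIs, 0.92 in the lowest Pf4 class, 0.62 with equal gene weights and 0.24 without Bax. By Pf4 share in DMSO, -0.029 became -0.089 with cells above the 75th over those below the 25th percentile, among cells of 15000 to 40000 UMIs (-0.088) and with equal cell weights (-0.091), and -0.38 with equal gene weights. By Pf4 share in RO-3066, -0.068 became -0.19 with those limits, -0.13 among cells of 15000 to 40000 UMIs, -0.15 with equal cell weights, 0.016 among cells without a Cdkn1a UMI and -0.31 with equal gene weights. The comparisons by Cdkn1a class 4 or more, in the lowest Pf4 class, without a Cdkn1a UMI and, by Cdkn1a, without Bax were chosen after seeing the data. The cause of these shifts was not tested. Depth differs between the groups compared, with more UMIs in RO-3066 cells and in cells of high Pf4 share.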

Other observations

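A further anti-death gene, Bcl2a1b, was at 0.290 CPM in the lowest and 11.7 CPM in the highest Pf4 class of RO-3066 cells, a ratio of 40.2 (19 and 394 UMIs). The 394 UMIs came from 156 of the 340 cells of that class, at most 12 from a cell, while the highest class of DMSO held 65 UMIs in 48 of 584 cells and the lowest 6 UMIs in 2916 cells. Reads of this gene can be split with near-identical Bcl2a1 copies, so its level is uncertain. Bnip3l, a mitophagy gene of maturing blood cells, was at 167 and 235 CPM in the lowest and highest Pf4 class of DMSO (1.40) and at 140.5 and 212 CPM in RO-3066 (1.51). Dusp6, a phosphatase gene of the growth factor pathway, was at 12.3 and 6.34 CPM in these classes of DMSO (0.515) and at 14.5 and 7.87 CPM in RO-3066 (0.544).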
